A study of Mus musculus with 35 samples.

Results

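Of the 388969 regions in which at least 1 of 8 RNA-binding proteins had a cluster of crosslink sites, 9964 lay in the coding part of a very long internal exon, defined as an internal exon of 500 nt or more. Clusters of the 8 proteins had been merged where they lay on the same strand with gaps of 30 nt or less, and a region was placed by its midpoint in the representative transcript of its gene (GENCODE vM1, mouse build mm9). The annotation held 3445 such exons among 162828 internal coding exons, with a median length of 799 nt, and they made up 14.7% of all internal coding sequence. Regions were found in 2009 of these exons, in 1695 genes, with a median of 4 regions per exon and a maximum of 48. Another 93024 regions lay in shorter internal coding exons and served for comparison.

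Internal exons of mammalian genes are usually short, because the splicing machinery pairs the splice sites at both ends of an exon, and SR proteins bound to exonic enhancers help it to do so. Very long internal exons are the exception, and many encode low-complexity or repetitive parts of large nuclear and scaffold proteins. SR proteins carry RNA recognition motifs and an arginine- and serine-rich domain, bind coding exons during splicing and stay on the mRNA, while NXF1, the main export receptor of mRNA, is recruited to its cargo by adaptor proteins and takes it through the nuclear pore.

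The study asked which RNAs are bound by each of 7 SR proteins and by NXF1, and whether their sites lie together. It used individual-nucleotide crosslinking and immunoprecipitation (iCLIP), in which ultraviolet light joins a protein to its RNA, the protein is immunoprecipitated, and the cDNA stops at the crosslinked base. The cells were mouse P19 embryonal carcinoma cells, a pluripotent line, and the genomic DNA of each protein's gene, with a GFP tag, had been introduced on a bacterial artificial chromosome and selected as stable clonal lines. All libraries came from untreated cells, ultraviolet crosslinking and an anti-GFP antibody. There were 4 libraries of SRSF1-GFP, 5 of SRSF2-GFP, 3 of SRSF3-GFP, 3 of SRSF4-GFP, 4 of SRSF5-GFP, 3 of SRSF6-GFP, 6 of SRSF7-GFP and 3 of NXF1-GFP, 31 in all, and the 4 control libraries, of GFP with a nuclear localisation signal, were used as the pooled file only, which enters no test. A line is a clone, so the protein and its clone cannot be told apart, and the labels do not say whether libraries of a protein came from separate cultures, so that p-values measure the spread between libraries, which may be technical.

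The files list the number of cDNAs (tags) only at positions that passed the submitters' test against random placement, so a position that is not listed counts as 0 here and a library's total is its listed tags, not its sequencing depth. Listed tags ranged from 13038 to 4459523 per library with a median of 237488, and CPM below means tags of a library scaled to a common total of listed tags (counts per 1000000). The file headers of SRSF2 replicates 2 and 5 name SRSF1 rather than SRSF2, so SRSF2 results are also given without them. All SRSF2, SRSF5 and SRSF6 libraries and SRSF7 replicates 1 to 3 carry an earlier run year (15 libraries), and the other 16 a later one. Coding tags were found at 10 of 10 pluripotency genes, from 4 in Zfp42 (in 1 library) and 53 in Nanog (in 7) to 2602 in Pou5f1 and 10588 in Dnmt3b. Of 6 genes of other cell types 1 had tags, Myh6, with 2 in 1 library.

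The sequences below show the coding sequence around the crosslinks at regions among the largest increases of each protein, as far as the position with most tags was listed in 3 libraries of that protein. Msh6 and Bod1l had larger differences for SRSF1 than Akap12, but their top position was listed in 1 library only. Each is a stretch of 30 nt of mm9, written 5′ to 3′ on the transcribed strand, and the capital marks the listed position with the highest CPM over the libraries of the named protein. Prpf4b, Ddx21 and Las1l are shown for SRSF6 (chr13:34975737-34975766 plus strand, chr10:62061374-62061403 minus strand and chrX:93135872-93135901 minus strand). Strc exon 4, Strc exon 2 and Qser1 are shown for SRSF3 (chr2:121203489-121203518, chr2:121205296-121205325 and chr2:104630041-104630070, all minus strand). Eif3a is shown for SRSF4 (chr19:60842338-60842367 minus strand), Dhx57 for SRSF7 (chr17:80674435-80674464 minus strand) and Akap12 for SRSF1 (chr10:5991832-5991861 minus strand). Strc exon 2 also met the condition for SRSF4, at another position, and that stretch is not printed.
Prpf4b exon 2, SRSF6: ccatccaaaagaagCaagtctcaagaccaa
Ddx21 exon 2, SRSF6: aaccaaagagataaTaacagaggagccttc
Las1l exon 12, SRSF6: aggaggaggaggagGaagagaaccaaaagg
Strc exon 4, SRSF3: gctctgccagcacaTcaagcctgccacccc
Strc exon 2, SRSF3: ccagccccctgcacTtcgacttcatgattt
Qser1 exon 3, SRSF3: gtaccacctcagtcTtcaacatatcgctca
Eif3a exon 19, SRSF4: tgctgaagataggaTttccaggagaggtgc
Dhx57 exon 5, SRSF7: tttatgtatgagctTcagattcgcttttct
Akap12 exon 3, SRSF1: atggtgacacccaaGaaacgggtccgaaga

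The regions were mostly narrow. Their median width was 23 nt, with 50% between 10 and 71 nt, but 207 were 500 nt or wider and the widest spanned 3258 nt. Of the 9964 regions, 3858 held 15 tags or more over the 31 libraries, and 607 held no tag in any single library, their cluster being listed only in a protein's combined file. A library put between 86 and 139002 tags into 26 to 5463 of the regions. Most of these tags (95.2%) lay inside the exon that held the region's midpoint, between 81.4% and 100% in the SR protein libraries, whereas the 3 NXF1 libraries had 73.4%, 63.0% and 51.0% inside the exon.

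SRSF6 and SRSF3 placed more of their internal coding exon tags in very long exons than the other SR proteins, and SRSF5 placed fewer. A tag counted toward the exon that held the midpoint of its region, also where the tag itself lay outside that exon. The share in very long exons was 13.3%, 13.3% and 13.1% in the SRSF6 libraries and 14.1%, 12.3% and 12.9% in the SRSF3 libraries. It was 5.37%, 5.2%, 9.07% and 5.95% in the SRSF5 libraries. All 6 libraries of SRSF3 and SRSF6 lay above all SRSF1, SRSF2, SRSF4 and SRSF5 libraries, and among the SR proteins only SRSF7 replicate 1 (13.1%) reached into their range.
The mean share was 13.2% ± 0.0995 (SD, n = 3) for SRSF6 against 9.04% ± 2.57 in the other 25 SR protein libraries (two-sided exact permutation test, p = 0.00488, adjusted over 8 comparisons 0.0280). For SRSF3 it was 13.1% ± 0.892 (n = 3) against 9.06% ± 2.58 (exact permutation p = 0.00946, adjusted 0.0280). For SRSF5 it was 6.40% ± 1.81 (n = 4) against 10.0% ± 2.56 in the other 24 (exact permutation p = 0.0105, adjusted 0.0280). These calls rest on few libraries: SRSF3 lost its call without SRSF3 replicate 1 (difference 3.55 percentage points, exact permutation p adjusted 0.182) or replicate 3 (4.13, 0.0760), SRSF6 without its replicate 1 or 2 (adjusted 0.0532 each), and SRSF5 without any of its replicates 1, 2 and 4 (adjusted 0.117, 0.121 and 0.0921).

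Within a run year the differences were larger, but each was taken against fewer proteins. No SRSF6 library was of the later year and no SRSF3 library of the earlier year. SRSF3 and SRSF6, both with high shares, were therefore not compared with each other. For this reason the larger differences do not show whether the run year had an effect. SRSF3 lay 4.88 percentage points above the other SR protein libraries of the later year (exact permutation p adjusted 0.0175), SRSF6 lay 4.52 above those of the earlier year (adjusted 0.0264) and SRSF5 lay below them by a difference of -4.39 (exact permutation p adjusted 0.0264).

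The other 4 SR proteins did not pass the test. SRSF1 libraries had shares of 8.51%, 8.13%, 5.72% and 8.83% (mean 7.80% ± 1.42, exact permutation p adjusted 0.385) and SRSF4 libraries 7.43%, 9.23% and 8.19% (8.28% ± 0.904, exact permutation p adjusted 0.598). SRSF2 ranged from 6.53% to 11.5% over 5 libraries (9.03% ± 2.25) and SRSF7 from 6.86% to 13.1% over 6 (10.0% ± 2.38), each with an exact permutation p adjusted to 0.688. Without SRSF2 replicates 2 and 5 the SRSF2 difference turned from -0.562 to 0.943 percentage points. The pooled control had 59 of 543 internal coding tags in the long exons, 10.9% (95% Clopper-Pearson interval 8.37 to 13.8%, covering counting error only), a value inside the range of the SR protein libraries.

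NXF1 had shares of 12.5%, 10.7% and 9.15% (mean 10.8% ± 1.66, n = 3) against 9.49% ± 2.76 in the 28 SR protein libraries, which the test did not separate (exact permutation p = 0.448, adjusted 0.598). A single region, in exon 4 of Ash1l, held 27.2%, 44.9% and 49.0% of the long-exon tags of the 3 NXF1 libraries. Without it the NXF1 mean was 6.83% ± 2.32 and the difference turned to -2.31 percentage points (exact permutation p adjusted 0.348). With tags inside the exon only, the NXF1 mean was 8.84% ± 2.21 against 9.56% ± 2.78 in the SR protein libraries (exact permutation p adjusted 0.810). Ash1l encodes a histone H3 lysine methyltransferase.

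**Figure D1:**
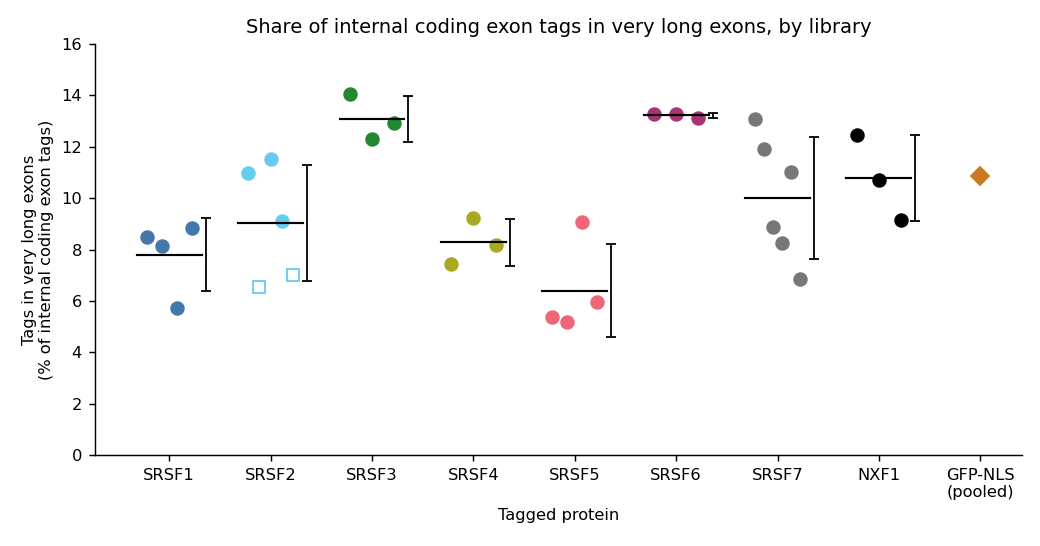
Share of each library's internal coding exon tags held by regions placed by midpoint in exons of 500 nt or more (percent, y axis), by protein (x axis). The mean is a horizontal bar and the SD an error bar. Open squares are SRSF2 replicates 2 and 5 and the diamond is the pooled control. The SRSF3 and SRSF6 libraries lie between 12.3% and 14.1%, and 3 of the 4 SRSF5 libraries lie below 6%.

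In the longest exons the density of SRSF6 was highest and close to that of internal coding sequence as a whole. Tags were again counted by the exon that held their region's midpoint. Tag density was expressed relative to an even spread of a library's tags over all annotated internal coding nucleotides, so that a density of 1 is the average of internal coding sequence. In the 309 exons of 2000 nt and over it was 1.08 ± 0.019 for SRSF6 (SD, n = 3), 0.743 ± 0.0442 for SRSF3 and between 0.291 and 0.615 for the other 6 proteins. Without replicates 2 and 5 the SRSF2 value there was 0.693 ± 0.127 (n = 3) in place of 0.614. All 3 SRSF6 libraries were at 1.07 or above there. In the 800 exons of 1000 to under 2000 nt SRSF3 was highest at 1.05 ± 0.119, followed by SRSF6 at 0.807 ± 0.00343 and SRSF7 at 0.767 ± 0.295, and SRSF5 was lowest at 0.393 ± 0.168. With 1000 nt as the minimum length, the share of SRSF6 lay 3.01 percentage points above the other SR proteins (exact permutation p adjusted 0.0195) and the difference for SRSF5 was -2.58 (adjusted 0.0279), while that for SRSF3 was 2.58 without passing (adjusted 0.0537).

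Just below and just above the threshold of 500 nt the densities differed for most proteins. The 1043 annotated exons of 400 to under 500 nt held 1419 regions and the 744 of 500 to under 600 nt held 1068. The density went from 1.24 to 0.864 in SRSF3, from 1.19 to 0.653 in SRSF6, from 1.05 to 0.442 in SRSF4 and from 0.665 to 0.302 in SRSF5. At 600 to under 800 nt it was higher again, at 1.01 in SRSF3, 1.06 in SRSF6, 0.864 in SRSF4 and 0.882 in SRSF5. The pooled control went from 12.5 to 0.229 across the threshold. Ncl exon 3 (496 nt) held 14.6% of the summed SRSF4 level (CPM averaged over libraries) of the shorter class and 11.5% of that of SRSF6. For SRSF7, replicate 5 had 4.86 in the shorter class and the other 5 libraries 0.651 to 1.70, and the beta-actin gene Actb held 25% of the summed SRSF7 level of that class.

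A few exons weighed heavily on a class. The shares that follow are of the level, CPM averaged over the libraries of a protein, so that shallow and deep libraries weigh alike. Regions placed in Ash1l exon 4 held 63.4% of the NXF1 level in the class of 600 to under 800 nt, where the NXF1 density was 2.47 ± 0.353. Srrm2 exon 11 held 35.4% of the SRSF5 level in exons of 2000 nt and over, and Akap12 exon 3 held 26.5% of the SRSF1 level there. Peg10 exon 2 held 23.8% of the SRSF7 level in exons of 1000 to under 2000 nt.

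**Figure D2:**
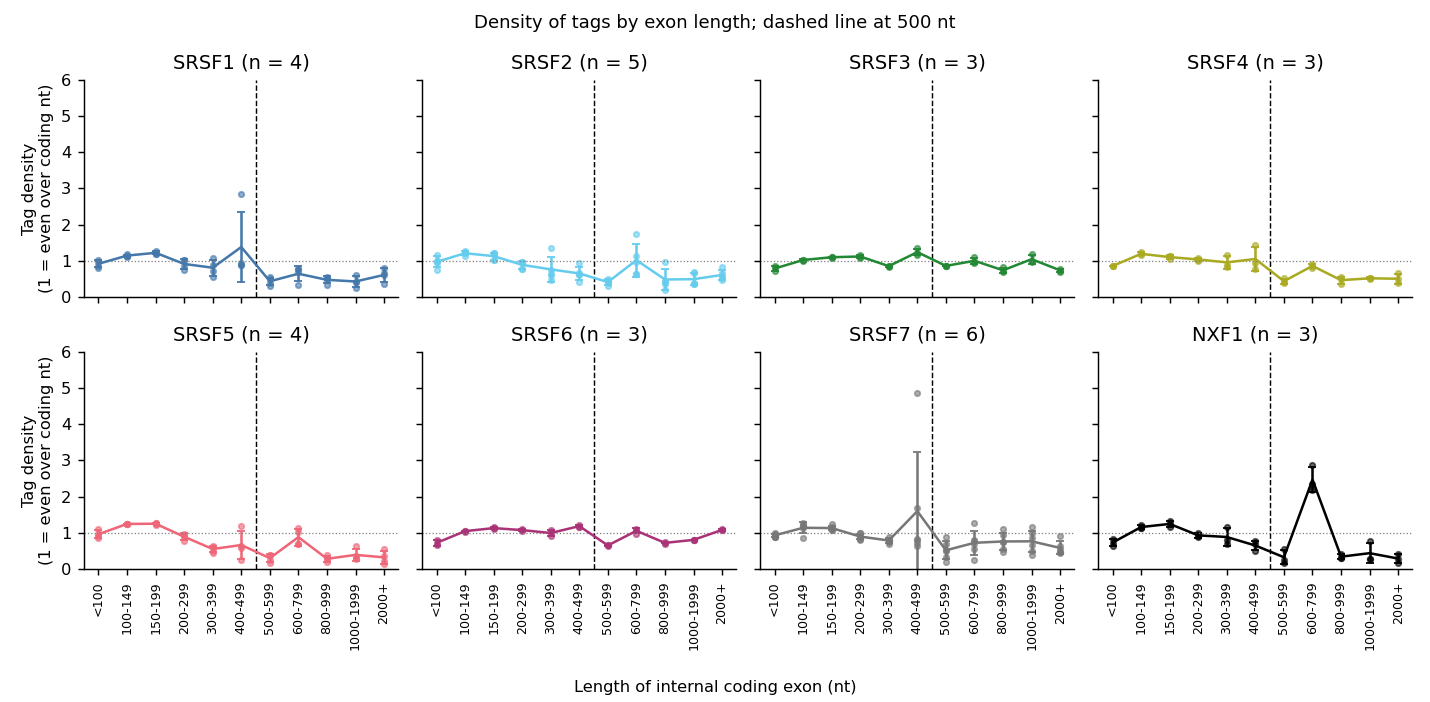
Density of tags relative to an even spread over internal coding sequence (y axis, 1 is even) in classes of exon length in nt (x axis), as means over libraries of each protein with SD as error bars, and a dashed line at 500 nt. Tags of a region count in the class of the exon that holds its midpoint. SRSF6 stays at 1.08 in exons of 2000 nt and over while SRSF5 falls to 0.324 and NXF1 to 0.291, and the NXF1 value of 2.47 at 600 to under 800 nt is largely Ash1l.

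Tags were denser near the ends of the long exons than in their middle for nearly all libraries. The share of tags within 100 nt of either end, divided by the share expected from an even spread over each exon, was above 1 in 30 of 31 libraries, SRSF7 replicate 5 being the exception at 0.749. It was 1.86 ± 0.415 for SRSF1, 1.62 ± 0.328 for SRSF5 and 1.56 ± 0.078 for SRSF2 (1.57 ± 0.103 without replicates 2 and 5), and lowest for SRSF6 at 1.18 ± 0.012 and SRSF3 at 1.23 ± 0.028. The share itself was 33.0% ± 8.15 for SRSF1, 32.9% ± 9.45 for SRSF5, 31.9% ± 5.27 for NXF1 and 20.2% ± 0.137 for SRSF6. None of the 8 comparisons of this share passed, the lowest adjusted p being 0.167 (exact permutation test). Divided by the even spread, the SRSF1 value did pass (difference 0.464, exact permutation p adjusted 0.0430).

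The end of the exon was not bound evenly. In the last 50 nt, next to the 5′ splice site, the density relative to an even spread was 0.653 ± 0.111 for SRSF6 and 0.719 ± 0.0717 for SRSF3. It was 0.711 ± 0.190 for NXF1, and the means of SRSF2, SRSF4 and SRSF7 lay between 0.795 and 0.923. SRSF2 replicates 2 and 5 had 1.30 and 1.12 from 2186 and 2275 tags. Its other libraries had 0.507 to 0.922 from 33 tags or fewer. SRSF7 replicate 4 had 1.12 from 6776 tags and replicate 6 had 0.869 from 1188. The other SRSF7 libraries held 2 to 43 tags there. The SRSF5 mean was above an even spread at 1.37 ± 0.182. The SRSF1 mean of 1.36 ± 0.666 rested largely on replicate 4, with 2.35 from 8 tags. SRSF1 replicate 1, the deepest, had 0.937 from 741 tags, and replicates 2 and 3 had 1.098 and 1.046. In the 50 nt before the last 50 nt the density was higher in every protein's mean, from 1.4 ± 0.0616 in SRSF3 to 2.90 ± 0.941 in SRSF1. There SRSF1 replicates 3 and 4 had 3.59 and 3.82 from 48 and 13 tags, against 1.94 in replicate 1 and 2.26 in replicate 2. In the first 50 nt, next to the 3′ splice site, the highest mean was that of NXF1 at 2.17 ± 0.947 and the lowest those of SRSF6 at 1.15 ± 0.0401 and SRSF7 at 1.16 ± 0.454. NXF1 replicate 3 had 3.26 from 18 tags, against 1.54 in replicate 1 and 1.71 in replicate 2, from 94 and 28 tags. The SRSF1 mean there was 1.88. These values are given without a test.

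**Figure D3:**
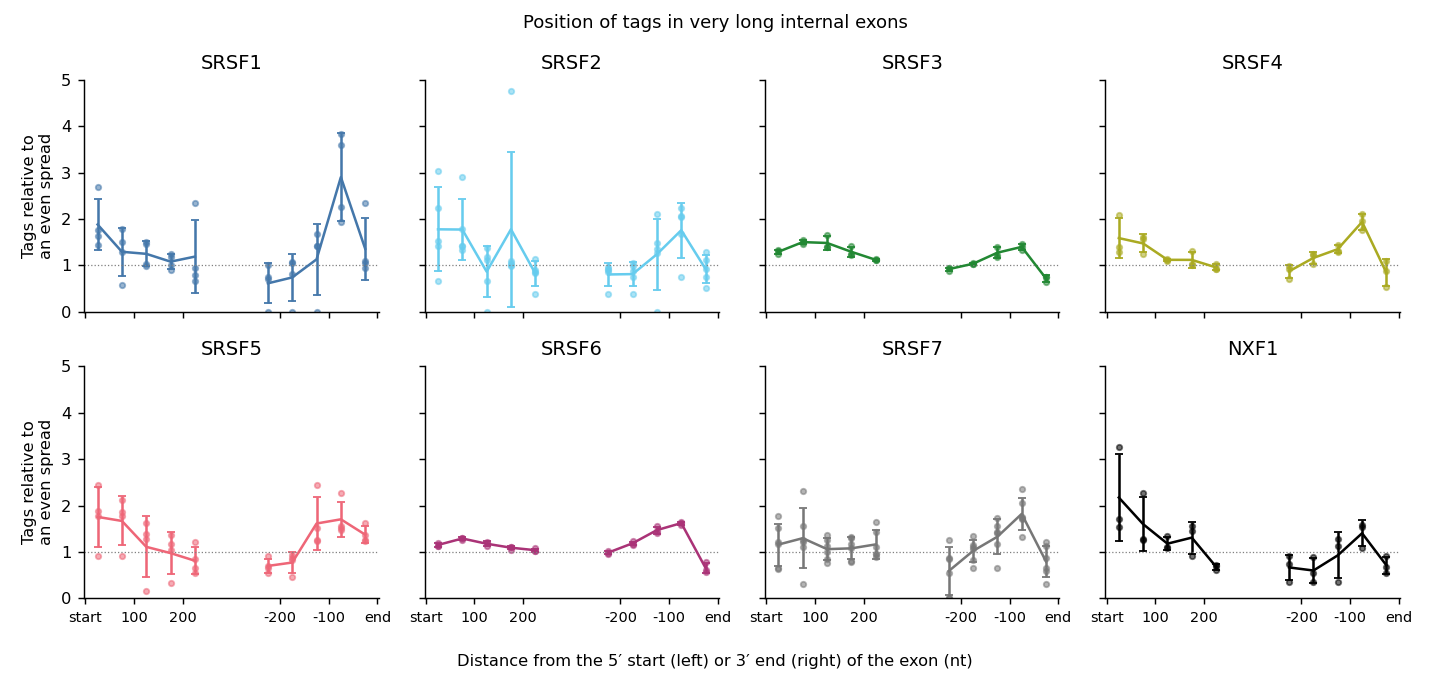
Tag density relative to an even spread over each very long exon (y axis) in bins of 50 nt counted from the exon start and from the exon end (x axis), as means over the libraries of each protein. All proteins have a higher mean 50 to 100 nt before the exon end than in the last 50 nt.

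The sequence around the listed positions differed between proteins. In windows of 31 nt centred on the listed positions of the long exons, taken in libraries with at least 500 such positions, purines made up 43.1% ± 1.79 for SRSF3 (n = 3), 47.3% ± 0.433 for SRSF5 (n = 2) and 49.8% ± 0.993 for SRSF2 (n = 3, of which replicate 4 alone, without replicates 2 and 5, had 51.0%). They made up 54.2% ± 0.262 for SRSF6 (n = 3) and 55.7% ± 0.664 for SRSF1 (n = 2). SRSF3 and SRSF1 thus stood at the pyrimidine and purine ends.
Part of this order came from the choice of exons, since the whole exons bound by SRSF3 held 48.8% purines and those bound by SRSF1 held 55.3%. Relative to the same exons, the share of purines in the windows differed by -5.73 ± 1.04 percentage points for SRSF3, by -3.53 ± 0.568 for SRSF5, by -0.626 ± 0.113 for SRSF6 and by 0.397 ± 0.381 for SRSF1.

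Words of 4 bases were counted on the sense strand in the same windows. CATC was enriched over the same exons by 0.83 ± 0.14 on the log2 scale for SRSF3 and by 0.29 to 0.48 for the other 7 proteins. TCGT was highest for SRSF5 at 0.94 ± 0.17 and for SRSF2 at 0.76 ± 0.06 (0.82 in replicate 4 alone). TTTT was enriched for every protein, from 0.58 ± 0.05 in SRSF6 to 1.12 in the only NXF1 library deep enough. Of the 30 bases printed above, 28 were purines in Las1l, 20 in Ddx21 and Akap12, 19 in Eif3a and 18 in Prpf4b, against 11 in Strc exon 4, 11 in Qser1, 10 in Dhx57 (SRSF7) and 9 in Strc exon 2.

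Regions in very long exons were shared by fewer proteins than regions in shorter exons. A cluster of SRSF6 was present in 5463 of the 9964 regions (54.8%), of SRSF3 in 3862 (38.8%), of SRSF4 in 3663 (36.8%), of SRSF2 in 3190 (32%), of SRSF7 in 3028 (30.4%), of SRSF1 in 2879 (28.9%) and of SRSF5 in 1999 (20.1%). NXF1 had a cluster in 474 (4.76%). These counts depend on how the combined files were made, and the part of depth in them was not tested. For SRSF2, SRSF3 and SRSF6 the combined file holds a single library's clusters. For SRSF2 it is replicate 2, whose header names SRSF1, since the file and the tags of that library marked the same regions in all 9964 cases.
A cluster of 1 protein alone was found in 4766 regions (47.8%), against 29.6% of the regions in shorter internal coding exons, and all 8 proteins met in 231 (2.32% against 3.75%). SRSF6 was alone in 1490 regions (15% against 5.83%) and SRSF3 in 1040 (10.4% against 4.89%), whereas SRSF2 was alone in 5.4% against 6.18%. With the SRSF2 clusters left out, 9426 long-exon regions remained, and 1 of the other 7 proteins was alone in 49.5% of them against 31.1% in shorter exons.

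Most NXF1 regions were also SR protein regions. Of the 474 long-exon regions with an NXF1 cluster, 78.7% had a cluster of SRSF6, 77.4% of SRSF4, 73.8% of SRSF7, 72.6% of SRSF2, 72.2% of SRSF1, 71.3% of SRSF3 and 63.3% of SRSF5. In 231 (48.7%) all 7 SR proteins were present and in 49 (10.3%) none. In shorter internal coding exons the 6112 NXF1 regions had all 7 SR proteins in 57.1% and none in 2.47%. Leaving out SRSF2, the other 6 SR proteins were all present in 49.2% of the long-exon NXF1 regions and 58.2% of those in shorter exons, and none in 10.8% and 2.96%. These shares are descriptions of the combined files and carry no test.

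Binding was concentrated in a few exons. When CPM was averaged within each protein and then over the 8 proteins, the 10 highest of the 2009 exons held 21.5% of the summed level and 76 exons held 50%, while the median exon had 1.79 CPM. Srrm2 exon 11 (chr17:23952089-23958657, plus strand, 6569 nt, 14 regions) was highest. Srrm2 encodes a scaffold protein of nuclear speckles with long arginine- and serine-rich stretches. Its level was 2398, 2333 and 2251 CPM in the SRSF6 libraries and 2155, 1878 and 2029 CPM in the SRSF3 libraries, above every other library, of which the highest was SRSF2 replicate 5 at 1507 CPM. NXF1 had 211, 57.0 and 36.8 CPM. Within it, the region at chr17:23955837-23957044 was listed at 0 in all 3 NXF1 libraries and in 24 of 28 SR protein libraries above 0, with a median of 156 CPM (limma adjusted p = 0.0311 for NXF1). A stretch of 541 nt of this exon has a copy on chromosome 1 with 97.0% identity, so tags there could be split.

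The Ash1l region (chr3:88810393-88812190) is wider than its exon 4 (chr3:88811064-88811799, 736 nt), and only 53.1% of its tags, and 19.7% of those of NXF1, fell inside the exon. The rest fell in the flanking introns of the representative transcript. NXF1 had 1870, 1503 and 874 CPM there, and the SR protein libraries ranged from 0 to 1086 CPM with a mean of 538 ± 309. The NXF1 ranges overlapped those of the SR proteins, and the region was not called (log2 difference 1.61 ± 0.79 SE, limma adjusted p = 0.164). The control had no listed tag in it.

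Peg10 exon 2 (chr6:4704124-4705330, plus strand, 1207 nt), of an imprinted gene derived from a retrotransposon, had 1547, 1984 and 1836 CPM in SRSF6 and 1273, 1437 and 877 CPM in SRSF3, against 0 to 223 CPM in SRSF5. It was higher in SRSF6 (log2 difference 2.81, limma adjusted p = 0.0185) and lower in SRSF5 (-3.82, limma adjusted p = 7.47e-04) and SRSF2 (-2.41, limma adjusted p = 0.0366). In SRSF3 28.5% of the tags of the region lay inside the exon. The pooled control had 10 of its 59 long-exon tags there, the most of any of the exons described here and 457 CPM on its 21880 listed tags, which is above the Peg10 means of SRSF1 (148 CPM), SRSF2 (94.7 CPM), SRSF5 (106 CPM) and NXF1 (224 CPM).

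Akap12 exon 3 (chr10:5988602-5993399, minus strand, 4798 nt) encodes most of a scaffold for protein kinase A. Its mean level was 1160 CPM for SRSF6 and 1060 CPM for SRSF1, against 61.5 CPM for SRSF3, 11.8 CPM for SRSF5 and 64 CPM for NXF1. Heg1 exon 6 (chr16:33726387-33727682, plus strand, 1296 nt), of a cell surface receptor, had 1032 CPM for SRSF3 and 480 CPM for SRSF6, and was higher in SRSF3 (log2 difference 2.85, limma adjusted p = 0.0355). Nasp exon 7 (chr4:116283008-116283982, minus strand, 975 nt), of a histone chaperone, had 749 CPM for SRSF6 and was called higher there (log2 difference 3.33, limma adjusted p = 0.0208), with 45.1% of its tags inside the exon.
Ankrd11 exon 11 (chr8:125413539-125420056, minus strand, 6518 nt, 10 regions), of a chromatin regulator, had 1230 CPM for SRSF6 against 284 CPM for SRSF7, the next highest mean, and 7.02 CPM for NXF1. A stretch of 384 nt of it has a copy on chromosome 13 with 99.2% identity. Kcnj3 exon 2 (chr2:55289192-55290313, plus strand, 1122 nt), of a potassium channel, had means from 53.3 CPM for NXF1 to 489 CPM for SRSF3. Thada exon 11 (chr17:84843158-84843849, minus strand, 692 nt) was the most even, from 120 CPM for SRSF1 to 365 CPM for NXF1.

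**Figure D4:**
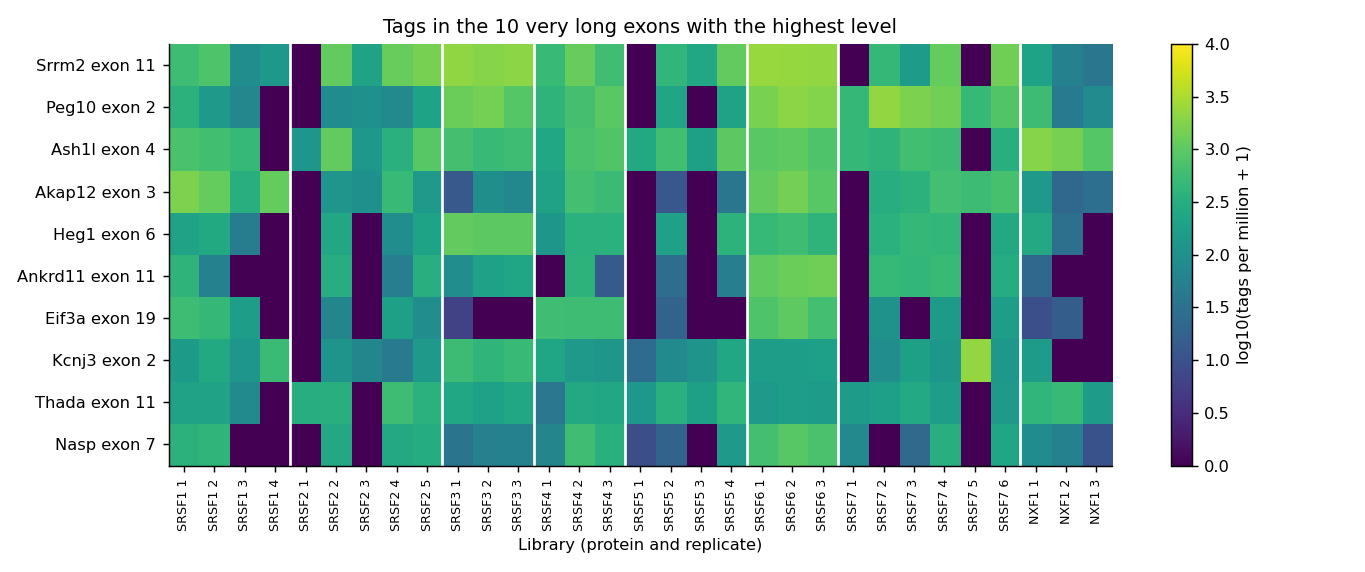
Level of the 10 exons with the highest mean level (y axis) in each of the 31 libraries (x axis, grouped by protein), coloured by log10(CPM + 1). Srrm2 and Peg10 are high throughout SRSF3 and SRSF6, Ash1l is listed in 29 libraries and is highest in NXF1, and Ankrd11 and Eif3a are lower in SRSF5 and NXF1 than in SRSF6 (Ankrd11 reaches 49.8 CPM in SRSF5 replicate 4).

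Exons with the most regions were not those with the most tags. Hivep1 exon 4 (5939 nt, a zinc finger transcription factor) held 48 regions at a level of 16 CPM, Spen exon 12 (8020 nt, an RNA-binding transcriptional repressor) 46 regions at 73.3 CPM and Rai1 exon 3 (5527 nt) 43 regions at 13.5 CPM. In Spen the SRSF6 mean was 381 CPM.

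Differences between proteins were tested for each region with limma over all 31 libraries. The test took regions with 15 tags or more whose level was 42.1 CPM or higher (10 tags in the median library) in 3 or more libraries. Only 273 of the 9964 long-exon regions met this, among 6649 regions tested, and all others were too sparse to test. Since 3 libraries of a protein with high levels are enough to pass, each count is also given for the regions that passed without that protein's own libraries. Libraries differed in depth and in how much of them lay in coding exons: internal coding exons held 39.2 to 42.4% of listed tags in SRSF6, 1.97 to 22.3% in SRSF5 and 2.07 to 5.83% in NXF1. These shares move with the direction of the calls. Scaling to coding tags changed the counts, as given below. The part of depth and of the coding share in the calls was not tested.

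SRSF6 was higher than the other SR proteins at 161 of the 273 regions, in 114 genes, and lower at 2, where 19% of all regions tested were higher and 5.14% lower. Of the 198 long-exon regions that passed without the SRSF6 libraries, 88 (44.4%) were higher, against 12.2% of all regions that passed so, and 2 (1.01%) lower, against 5.66%. Scaled to coding tags instead of all listed tags, 83 were higher and 6 lower. With that scaling 480 of all 6649 regions were higher and 1274 lower.
The largest difference was in exon 2 of Prpf4b, which encodes a kinase of the spliceosome (region chr13:34975084-34976372). The SRSF6 libraries had 931, 1082 and 939 CPM, whereas the other SR protein libraries ranged from 0 to 65.5 CPM with a median of 0 (log2 difference 6.70 ± 0.60 SE, limma adjusted p = 9.20e-09). Only 2 libraries of other SR proteins reached the minimum level there, so the region entered the test through SRSF6. Ddx21 exon 2 (chr10:62060852-62061645), of a nucleolar RNA helicase, had 745, 991 and 637 CPM against at most 230 CPM in SRSF7 replicate 1 (6.08 ± 0.88, limma adjusted p = 1.60e-05). Las1l exon 12 (chrX:93135681-93135992), of a ribosome biogenesis factor, had 109, 126 and 108 CPM against at most 49.8 CPM in SRSF1 replicate 1 (5.03 ± 0.74, limma adjusted p = 1.79e-05), and it too entered the test through SRSF6, with 2 other SR protein libraries at the minimum level. In all 3 regions the SRSF6 libraries lay above every other library.

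The 2 regions lower in SRSF6 were in Smek2 (a regulatory subunit of a protein phosphatase), from 0 to 13.2 CPM (log2 difference -2.68 ± 0.77, limma adjusted p = 0.0100), and in Nup153 (a protein of the nuclear pore basket), from 2.15 to 5.67 CPM (-2.0 ± 0.61, limma adjusted p = 0.0154).

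SRSF3 was higher at 90 regions in 74 genes and lower at 62 in 55 genes, where 18.5% of all regions were higher and 19.9% lower. Of the 223 that passed without SRSF3, 40 (17.9%) were higher, against 9.04% of all such regions, and 62 (27.8%) lower, against 22.6%. With trimmed-mean scaling the split was 104 higher and 30 lower, and with coding totals 78 and 76. Over all 6649 regions the splits were 1478 higher and 601 lower, and 975 and 1873.
The largest increases were in Strc, which encodes stereocilin, a protein of inner ear hair bundles. Its exon 4 region (chr2:121202946-121203752) had 1056, 487 and 623 CPM in SRSF3 (log2 difference 6.67 ± 0.93, limma adjusted p = 4.39e-06) and its exon 2 region (chr2:121204763-121205724) 1060, 784 and 825 CPM (6.44 ± 1.10, limma adjusted p = 5.09e-05). Strc tags were also listed in all SRSF4 libraries (81.6 to 402 CPM in a region) and all SRSF6 libraries (95.4 to 340 CPM in a region). All libraries of SRSF1, SRSF5, SRSF7 and NXF1, and SRSF2 replicates 1 and 2, were listed at 0 in both. Both regions were called higher in SRSF4 as well (log2 differences 4.13 ± 0.91 and 4.22 ± 1.08, limma adjusted p = 0.00316 and 0.0101), and lower in SRSF1 and SRSF7.
Qser1 exon 3 (chr2:104627582-104630361), of a glutamine- and serine-rich protein, had 691, 631 and 623 CPM in SRSF3 and at most 117 CPM elsewhere (5.26 ± 0.74, limma adjusted p = 4.70e-06).

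Exons low in SRSF3 included some of the strongest SRSF6 exons. Eif3a exon 19 (chr19:60842198-60842912), of a subunit of translation initiation factor eIF3, had 4.89, 0 and 0 CPM in SRSF3 against 796, 1025 and 628 CPM in SRSF6 and 582, 578 and 571 CPM in SRSF4. SRSF3 was lower (log2 difference -8.08 ± 1.22, limma adjusted p = 1.20e-05) and SRSF4 higher (4.06 ± 0.78, limma adjusted p = 0.00104). The SRSF3 and SRSF4 libraries did not overlap. Mtap1b exon 5, of a microtubule-associated protein, was listed at 0 in all 3 SRSF3 libraries (limma adjusted p = 0.00136), and Baz1b exon 7, of a chromatin remodelling subunit, ranged from 0 to 1.86 CPM (-4.91 ± 0.92).

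SRSF5 had the opposite pattern to SRSF6 in counts: 139 regions in 110 genes were lower and none higher, where 23% of all regions were lower and 10.4% higher. Even without adjustment no region was higher (0 at p under 0.05, limma). Of the 272 regions that passed without SRSF5, 139 (51.1%) were lower, against 24.3% of all such regions. Without SRSF5 replicate 2 the count was 39, and scaled to coding totals 84 were lower and 6 higher. With that scaling 884 of all 6649 regions were lower and 1813 higher. Wapal exon 3 (a cohesin release factor), Spnb2 exon 16 (beta-spectrin) and Trip12 exon 3 (a ubiquitin ligase) were listed at 0 in all 4 SRSF5 libraries and had medians of 23.8, 42.6 and 49.4 CPM in the other SR protein libraries (limma adjusted p = 0.00269, 0.00158 and 0.00139).

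SRSF7 was higher at 25 regions and lower at 4, where 7.28% of all regions were higher and 4.48% lower. Of the 256 that passed without SRSF7, 19 (7.42%) were higher, against 5.21% of all such regions, and 4 (1.56%) lower, against 4.95%. With trimmed-mean scaling 2 were higher and 3 lower, and with coding totals 10 and 7. Over all 6649 regions the splits were 121 higher and 212 lower, and 256 and 414. The largest difference was in Dhx57 exon 5 (chr17:80673994-80674941), of a helicase family member, with 0, 328, 561, 620, 423 and 433 CPM in the 6 SRSF7 libraries and at most 17.0 CPM in any other SR protein library (log2 difference 6.08 ± 0.57, limma adjusted p = 3.63e-09). SRSF7 replicate 1, the library with the fewest listed tags, was the only SRSF7 library at 0. No other SR protein library reached the minimum level, so the region was tested only because SRSF7 was high there. The call was kept in all alternative fits (highest adjusted p = 9.87e-05). A region of Mki67 exon 12, of a protein of dividing cells, was higher as well (2.59 ± 0.63, limma adjusted p = 0.00660), though not in every alternative fit (limma adjusted p up to 0.387). SRSF7 had tags there in 3 of its 6 libraries, with 139 CPM at most, whereas the SRSF6 libraries had 233 to 287 CPM. The 4 lower regions were 3 of Strc, 2 of them in exon 4, and 1 of Phc1 exon 8, where SRSF7 ranged from 0 to 28.9 CPM (-1.42 ± 0.48, limma adjusted p = 0.0493), a call lost in 27 of 39 alternative fits (limma adjusted p up to 0.652). The Strc region that the rule for named genes did not take is at chr2:121202378-121202826, and all its SRSF7 libraries were listed at 0.

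SRSF1 was higher at 8 regions and lower at 30, where 10.4% of all regions were higher and 6.83% lower. Of the 267 that passed without SRSF1, 6 (2.25%) were higher, against 8.05% of all such regions, and 30 (11.2%) lower, against 7.25%. With trimmed-mean scaling the split was 2 and 13 and with coding totals 21 and 42. Over all 6649 regions the splits were 203 higher and 157 lower, and 1111 and 660. Akap12 exon 3 (region chr10:5990444-5993416) had 1270, 906, 322 and 1141 CPM in SRSF1 (log2 difference 2.77 ± 0.72, limma adjusted p = 0.00821), overlapping SRSF6, which had 713 to 1110 CPM. Msh6 exon 4 (mismatch repair) and Bod1l exon 10 (protection of replication forks) were higher as well (3.24 ± 0.62 and 2.81 ± 0.51), with at least 1 SRSF1 library at 0, SRSF6 libraries at 39.2 to 53.7 CPM for Msh6 and 66.3 to 84.8 CPM for Bod1l against SRSF1 means of 36.4 and 27.5 CPM, and a copy of 639 nt of the Msh6 exon on chromosome 4. The largest decreases for SRSF1 were at both Strc regions and at a region of Slc16a3 (a lactate transporter), listed at 0 in all 4 SRSF1 libraries (limma adjusted p = 0.0441, 0.0451 and 0.00278). The Strc calls for SRSF1 were lost in 16 and 19 of 38 alternative fits (limma adjusted p up to 0.340 and 0.392).

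SRSF4 was higher at 9 regions and lower at 2, where 9.2% of all regions were higher and 0.887% lower, and the 3 largest were the Strc and Eif3a regions above. Of the 268 that passed without SRSF4, 8 (2.99%) were higher, against 7.73% of all such regions, and 2 (0.746%) lower, against 0.942%. The 2 lower regions, in Myo10 (a motor protein of filopodia) and in Slc16a3, were listed at 0 in all 3 SRSF4 libraries. With trimmed-mean scaling 1 was higher and 2 lower, where 96 of all 6649 regions were higher and 19 lower. SRSF2 was lower at 17 regions and higher at none, where 5.2% were lower and 1.65% higher, and 6 were higher at an unadjusted p under 0.05. Of the 268 that passed without SRSF2, 17 (6.34%) were lower, against 5.53% of all such regions. With coding totals 5 were higher and 17 lower, where 356 of all 6649 regions were higher and 323 lower. The 3 largest decreases for SRSF2 were at the Mki67 region above, with at most 1.86 CPM in SRSF2 (log2 difference -4.13 ± 0.75, limma adjusted p = 6.24e-04), and at regions of Las1l and Bod1l that were listed at 0 in all 5 SRSF2 libraries (limma adjusted p = 9.54e-04 and 4.99e-04). Without SRSF2 replicates 2 and 5 no long-exon region was called for SRSF2.

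NXF1 was lower than the SR proteins at 5 regions and higher at none, where 1.64% of all regions were lower and 10.1% higher. At an unadjusted p under 0.05, 52 were lower and 1 higher. All 273 regions passed without the NXF1 libraries, and the 5 (1.83%) stood against 1.7% of all regions that passed so. With coding totals 3 were higher and 1 lower, where 1603 of all 6649 regions were higher and 25 lower. The median log2 difference was then -0.142 in the long-exon regions tested and 0.753 over all regions. Besides Srrm2, regions in Phc1 (a Polycomb protein) and Atf7ip (a partner of a histone methyltransferase) were listed at 0 in all 3 NXF1 libraries (limma adjusted p = 0.00768 and 0.0486, the Atf7ip call being lost in 19 of 38 alternative fits), and Phc1 and Atf7ip had medians of 39.0 and 14.7 CPM in the SR protein libraries. The other 2 were the Akap12 region, with a mean of 43.6 CPM against 367 CPM in the SR protein libraries (log2 difference -2.56 ± 0.81, limma adjusted p = 0.0342), and Slc7a6 exon 2 (chr8:108703006-108703548), of an amino acid transporter, named after its values were seen and listed at 0 in NXF1 (limma adjusted p = 0.0373). Leaving out any NXF1 library removed all 5 calls.

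**Figure D5:**
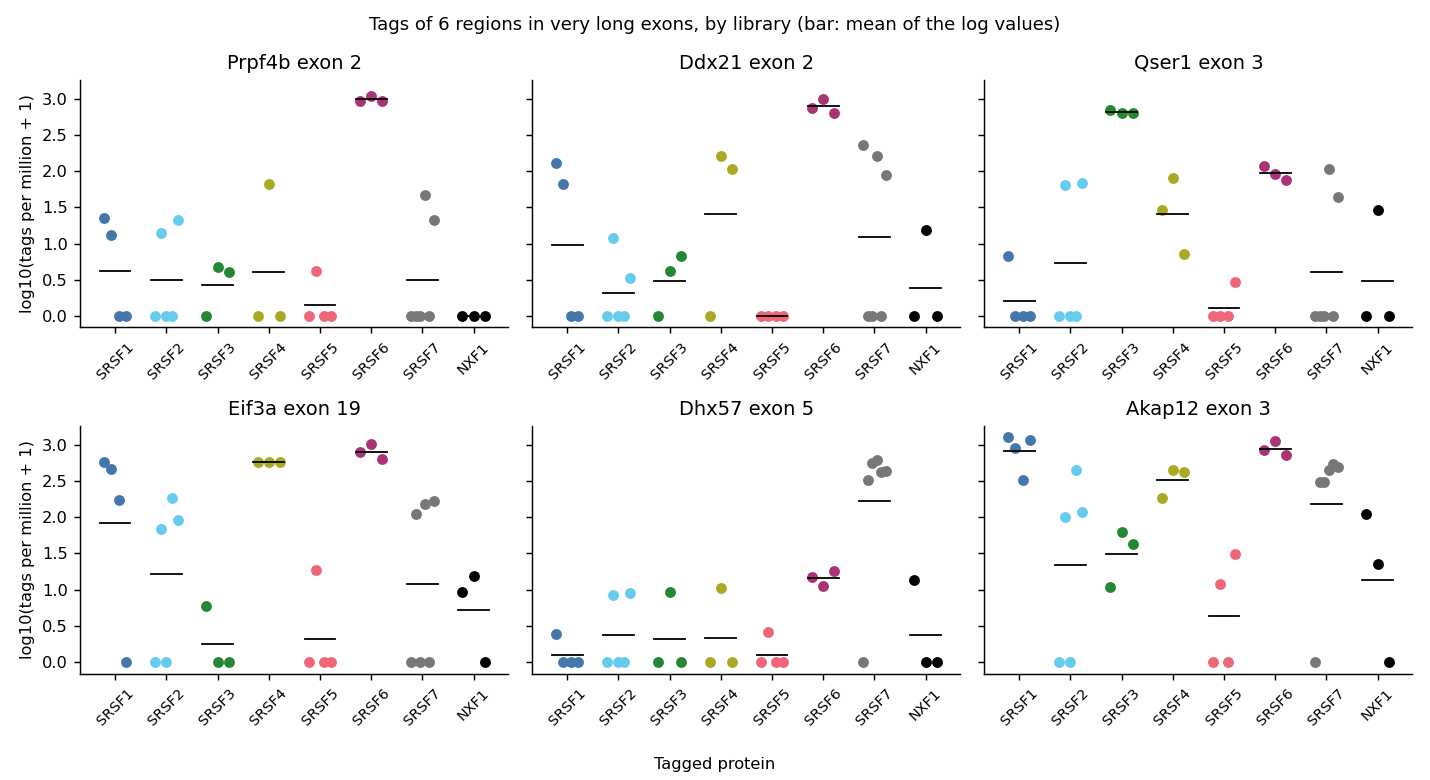
Level of 6 regions in every library (y axis, log10(CPM + 1)), grouped by protein (x axis), with bars at the mean of the log values. Prpf4b and Ddx21 are highest in SRSF6, Qser1 in SRSF3 and Dhx57 in SRSF7, Eif3a is near 0 in SRSF3 and high in SRSF4 and SRSF6, and Akap12 is high in both SRSF1 and SRSF6.

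Groups of genes, listed by function with earlier results of these data known, were described by counts, and the medians are those of the regions tested. Over all 273 regions tested the median log2 difference was 2.15 for SRSF6 (0.37 over all regions of the series tested), 0.34 for SRSF3 (-0.23), -2.10 for SRSF5 (-0.66) and -1.91 for NXF1 (-1.03). Of the same 273, SRSF6 was higher at 59%, SRSF3 higher at 33.0% and lower at 22.7%, and SRSF5 lower at 50.9%, and the lists below, each with 4 to 40 regions tested, are read beside these shares and carry no test of their own. The list counts include regions that entered the test only through the libraries of the protein named, and no count without such regions is given by list. Among chromatin and histone modifying proteins, 50 genes held 591 regions, of which 40 were tested. SRSF6 was higher at 26 of them (65%), SRSF3 higher at 13 (32.5%) and lower at 10 (25%), and SRSF5 lower at 22 (55%), shares close to those of all long-exon regions. In Atrx exon 9, of a chromatin remodeller, SRSF6 had 238 ± 32.4 CPM (log2 difference 4.53 ± 0.72), and in Ankrd11 exon 11 a region had 643 ± 65.8 CPM (4.79 ± 0.95). Jmjd1c exon 8, of a histone demethylase family member, had 150 ± 25.6 CPM in SRSF3 (3.37 ± 0.71).

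Among RS-rich and nuclear speckle proteins, 15 genes held 132 regions and 20 were tested, of which SRSF6 was higher at 10 (50%), SRSF3 higher at 3 and lower at 2, and SRSF5 lower at 8. Son exon 3, of a speckle protein, had 4 regions higher in SRSF6, the largest at 2.97 ± 0.62. At the largest, 1 library of another SR protein reached the minimum level, and 2 did at the region chr16:91656545-91656910. Both thus entered the test through SRSF6. A region of Cdk12 exon 2, of a transcription elongation kinase, was higher in SRSF3 (3.02 ± 0.59).

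The DNA repair, replication and mitosis list had 29 genes with 440 regions and 12 tested. SRSF6 was higher at 11 of the 12 (91.7%), with a median of 3.34, SRSF3 was lower at 4 and higher at none, and SRSF5 lower at 7. Brca1 exon 10 had 3 regions higher in SRSF6, the largest with 87.3 ± 9.31 CPM (3.75 ± 0.55), Rif1 exon 30 had 2 (3.71 ± 0.54 the larger) and Mki67 exon 12 had 3 (4.80 ± 0.72 the largest). No library of another SR protein reached the minimum level at the Brca1 and Rif1 regions with these largest values, so both entered the test through SRSF6 alone.

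Cytoskeleton and scaffold proteins had 22 genes with 353 regions and 10 tested. SRSF6 was higher at 9 (90%), SRSF5 lower at 8 (80%), SRSF3 lower at 5 and higher at none, and SRSF1 higher at 2. Golga4 exon 15, of a Golgi coiled-coil protein, had 166 ± 21.6 CPM in SRSF6 (4.13 ± 0.58) and 0.945 ± 1.22 CPM in SRSF3 (-3.88 ± 0.68). Mtap1b exon 5 had 4 regions higher in SRSF6, the largest at 4.56 ± 0.79.

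Translation and RNA-binding proteins had 18 genes with 169 regions and 15 tested, SRSF6 higher at 11 (73.3%), SRSF3 higher at 2 and lower at 6, and SRSF5 lower at 5. Within Prrc2c the proteins differed by exon: exon 19 was higher in SRSF3 (328 ± 46.0 CPM, 3.13 ± 0.58), and exons 16 and 12 in SRSF6 (508 ± 117 and 81.2 ± 9.80 CPM, 3.14 ± 0.88 and 2.59 ± 0.59).
Zinc finger and homeodomain transcription factors had 35 genes with 513 regions and 16 tested, with SRSF6 higher at 7 (43.8%), SRSF3 higher at 5 and lower at 3, and SRSF5 lower at 9. Zfp106 exon 5 had 224 ± 15.4 CPM in SRSF6 (4.02 ± 0.77) and Tcf20 exon 2 had 132 ± 1.28 CPM at 1 of its regions in SRSF3 (2.18 ± 0.70).

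Nuclear pore and RNA export proteins had 7 genes with 70 regions and only 4 tested, all 4 higher in SRSF3, with 1 higher and 1 lower in SRSF6 and 3 lower in SRSF5. The 2 regions of Pom121 exon 11, of a membrane protein of the pore, had 121 ± 24 and 153 ± 17.4 CPM in SRSF3 (log2 differences 4.97 ± 0.64 and 4.82 ± 0.62). Nup153 exon 18 had 112 ± 7.60 CPM (3.85 ± 0.63) and Ranbp2 exon 20, of a protein of the cytoplasmic filaments of the pore, 82.8 ± 29.7 CPM (3.35 ± 0.53). No library of another SR protein reached the minimum level at these 4 regions, so they were tested only because of SRSF3 and their count is no measure of the list.

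The control libraries had 59 listed tags in 20 of the 9964 regions (0.201%) among 21880 listed tags in all. Apart from Peg10, the control had 3 tags in the Akap12 exon, 3 in the Eif3a exon and 2 in the Thada exon, and none in Srrm2, Ash1l, Heg1, Ankrd11, Kcnj3 or Nasp.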

How the data were processed

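The files of the 31 libraries, of the pooled control and of each protein's clusters were used as deposited. Per the file headers, the authors gave each position a whole number, the count of cDNAs after removal of duplicates, signed by strand and therefore treated as a score, and kept only positions with a false discovery rate of 0.05 over 100 permutations within 15 nt, on mm9 with Ensembl 59 segments. CASAVA 1.4 and build mm9 come from the submitters' processing notes, and which program aligned the reads was not given in the sources used here.

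Groups and replicate numbers came from the sample titles. Clusters of the 8 proteins were merged on the same strand with gaps up to 30 nt, and the tags of a library were summed over each region. Regions and exons were placed with GENCODE vM1, using for each coding gene the transcript with the longest coding sequence. Tags of genes with near-identical copies may be split, so the 35 exons named were compared with the genome and 3 had a copy of 200 nt or more at 95% identity. Shares per library were compared by two-sided exact permutation tests, NXF1 against 28 SR protein libraries and each SR protein against the others, with Benjamini-Hochberg adjustment over the 8 comparisons. Regions were tested with limma 3.58.1 (voom, R 4.3.3) in 1 fit over 31 libraries with listed tags as library size, because unlisted positions make a count model unsuitable, and adjusted p-values are Benjamini-Hochberg values over all regions tested. The fit was tested on simulated data, where false calls exceeded the nominal rate in some comparisons, most for SRSF6 and SRSF3, and many decreases were missed for proteins with shallow libraries. A log2 difference is one of mean log2 CPM, and none is given where all libraries of a group are at 0. The 31 libraries varied widely in listed tags, and the shallow ones carry the larger error.

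The members and gene lists were chosen with earlier results of these data known. Genes named are those of the 10 exons with the highest level, the 3 exons with most regions, up to 3 regions called in each direction of each comparison with the largest difference (1 per exon), and up to 4 genes with a called region per list, by level. Replicate numbers did not pair the libraries: deviations of same-numbered libraries had a mean correlation of 0.0146 over 91 pairs. Alternatives covered scaling, the filter, limma-trend, a replicate block, the exon minimum, shallow libraries, SRSF2 replicates 2 and 5, run years and each library left out. Choices made after seeing the data were the earlier run year, the ratio to an even spread, region fits within run years, tags inside the exon only, leaving out the Ash1l region, cluster counts without SRSF2, and other SRSF2 values without replicates 2 and 5.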

Additional observations from a re-analysis of the deposited data

Results flagged for a closer look

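In 48 groups of 4 to 6 libraries of a protein at a named exon, the highest or lowest library was tested for a wide gap to the others, which chance alone would show in about 1 in 20 groups, and 5 groups had such a library. Kcnj3 exon 2 reached 2235 CPM in SRSF7 replicate 5, a library of 16556 listed tags. Akap12 exon 3 reached 512 CPM in SRSF2 replicate 4 and Ankrd11 exon 11 reached 402 CPM in SRSF1 replicate 1, the deepest of its group. In SRSF5, Eif3a exon 19 had 17.5 CPM in replicate 2 and Nasp exon 7 had 138 CPM in replicate 4, the 2 deepest SRSF5 libraries. The part of depth in these values was not tested.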

How the results depend on the processing

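Differences are in percentage points of the share in very long exons unless said otherwise, and for values that changed the cause was not tested where no construction shows it. As a share of all listed tags off the mitochondrial genome, SRSF3 (1.74) and SRSF5 (-1.65) no longer passed and NXF1 (-1.55) and SRSF7 (-0.347) changed sign. With a minimum of 1000 nt, NXF1 turned to -2.15 and SRSF3 (2.58) did not pass. NXF1 was -0.720 with tags inside the exon only and -2.31 without the Ash1l region. In libraries of 50000 listed tags or more, SRSF5 (-3.37) did not pass and SRSF7 was -0.173, and SRSF7 was -0.817 in the later run year. SRSF2 was 0.943 without its replicates 2 and 5. With a replicate block, SRSF3 (4.04), SRSF5 (-3.61) and SRSF6 (4.19) kept their size with adjusted p of 0.140, 0.0641 and 0.140 in the exact permutation test within numbers, which leaves fewer arrangements. For the end share, the ratio to an even spread gave 0.464 for SRSF1 (passing) and -0.00166 for SRSF4, and libraries of 50000 listed tags or more gave -0.412 for SRSF2.

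Leaving out 1 library gave differences of 0.447 to 2.11 for NXF1, -2.32 to -1.28 for SRSF1, -1.18 to 0.0630 for SRSF2, 3.55 to 4.43 for SRSF3, -1.83 to -0.927 for SRSF4, -4.50 to -3.21 for SRSF5, 4.03 to 4.4 for SRSF6 and 0.0310 to 1.27 for SRSF7. SRSF2 changed sign without SRSF2 replicate 2, and SRSF5 also lost its call without SRSF3 replicate 3, SRSF6 replicate 1 or SRSF6 replicate 2. For the end share the ranges were 2.98 to 7.80 for NXF1, 3.13 to 9.42 for SRSF1, 1.01 to 2.58 for SRSF2, -5.65 to -4.39 for SRSF3, -1.31 to 2.92 for SRSF4 (changing sign without SRSF4 replicate 3), 3.54 to 10.7 for SRSF5, -8.35 to -7.09 for SRSF6 and -5.48 to -2.69 for SRSF7.

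Long-exon regions called changed by over 1.5 times as follows. Trimmed-mean scaling gave 3 for NXF1, 15 for SRSF1, 4 for SRSF2, 3 for SRSF4 and 5 for SRSF7. Coding totals gave 63 for SRSF1, 90 for SRSF5, 89 for SRSF6 and 17 for SRSF7. A looser filter gave 71 for SRSF1, 37 for SRSF2, 366 for SRSF3, 24 for SRSF4, 241 for SRSF5, 360 for SRSF6 and 84 for SRSF7. limma-trend gave 123 for NXF1, 5 for SRSF1, 0 for SRSF2, 1 for SRSF4 and 11 for SRSF7. The replicate block gave 2 for SRSF2 and 6 for SRSF7. The later run year gave 15 for NXF1 and 6 for SRSF7, the earlier 7 for SRSF2 and 3 for SRSF7, and SRSF2 without replicates 2 and 5 gave 0. The median log2 difference of all regions moved from 0.37 to 0.99 for SRSF6 and from -0.23 to 0.64 for SRSF3 with trimmed-mean scaling, and with coding totals to -0.76 and -0.75, from -0.66 to 0.53 for SRSF5 and from -1.03 to 0.75 for NXF1.

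With 1 library left out the counts ran from 0 to 9 for NXF1 (0 without any NXF1 library), 7 to 51 for SRSF1 (7 without its replicate 1), 1 to 21 for SRSF2 (1 without its replicate 2), 59 to 159 for SRSF3 (59 without its replicate 2), 5 to 13 for SRSF4 (5 without its replicate 2), 39 to 146 for SRSF5 (39 without its replicate 2), 69 to 172 for SRSF6 (69 without its replicate 2) and 12 to 39 for SRSF7 (12 without its replicate 4 or 6). Of 37 calls at named regions, 16 held in all alternatives and 1 changed sign, Strc exon 4 for SRSF7 in the earlier run year (0.92 on the log2 scale).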
